A study of Mus musculus with 6 samples.

Results

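The early growth response (Egr) and Nr4a genes encode transcription factors that neurons switch on when they are active, and 6 of them, Egr1, Egr3, Egr4, Nr4a1, Nr4a2 and Nr4a3, were followed here. They were chosen by family and by symbol, with earlier results of these data known, and make up 6 of the 55604 gene identifiers in the count tables. All 6 had enough reads to be tested. Brain RNA of C57BL/6 mice was compared between animals given 4-aminopyridine (4-AP) by intraperitoneal injection and untreated controls (NC), with 3 libraries in each group. 4-Aminopyridine is a blocker of voltage-gated potassium channels, given here to bring on status epilepticus, that is, seizures that do not stop by themselves. RNA of both groups was treated with RNase R, an exonuclease that digests linear RNA and spares circular RNA. The values are reads per gene, so the circular and linear RNA of a gene are counted together. The labels do not give the brain region, the age or sex of the mice, the dose, or the time between injection and sampling, and do not say whether libraries of 1 group are from different mice. The p-values accordingly refer to the spread between libraries only, and that spread may be technical.

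Immediate early genes are transcribed within minutes of a stimulus, without the need for new protein. The EGR proteins are zinc finger factors that bind GC-rich sites, and their genes are driven by MAP kinase signalling through the serum response factor SRF and its ELK partners. The NR4A proteins are orphan nuclear receptors that act without a known natural ligand, and their genes are driven by cyclic AMP and calcium through CREB and MEF2 factors. Seizures are a classical inducer of both families in rodent forebrain. Egr1 and Egr3 serve synaptic plasticity and memory, Egr3 also muscle spindle development, and Egr4 is best known for its role in male germ cells. Nr4a1 and Nr4a3 are broadly inducible in forebrain neurons, whereas Nr4a2 is in addition a constitutive identity factor of midbrain dopamine neurons, the claustrum and deep cortical neurons.

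The libraries held between 1507882 and 2721287 counts in the 4-AP group and between 2355610 and 3409055 in the NC group. The 10 most abundant genes took between 25% and 38.5% of counts in 4-AP libraries and between 14.7% and 27.9% in NC libraries, and ribosomal RNA took between 3.03% and 8.51% in 4-AP libraries and between 0.647% and 3.78% in NC libraries. The part of these shares in the results was not tested. Neuronal markers were present in every library, as the labelled tissue requires: all 8 pan-neuronal markers (among them Rbfox3, Snap25 and Map2) were measured, with summed levels between 2720 and 3090 CPM (counts relative to the scaled library total) in 4-AP brain and between 3170 and 3550 CPM in NC brain. NC replicate 1 stood apart in regional markers. The 11 striatal markers summed to 150 CPM there, against 896 and 1510 CPM in the other NC libraries and between 915 and 1290 CPM in 4-AP libraries. The 7 hippocampal markers summed to 165 CPM in NC replicate 1 and to between 29.6 and 64.3 CPM in the other 5 libraries. 4-AP replicate 2 stood apart in other markers. The 6 choroid plexus markers summed to 79.7 CPM there, against 15 and 38.7 CPM in the other 4-AP libraries and between 3.63 and 13.4 CPM in NC libraries. The 7 midbrain dopamine markers summed to 103 CPM there and to between 36.8 and 60.7 CPM in the other 5 libraries. The members' log2 fold changes and the median of their correlations are also given without NC replicate 1.

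Promoter windows of 4 of the 6 genes were taken from the RefSeq table (GRCm38.p6). Egr1 and Egr3 were left out of this search, so its results do not cover them. The sequence is shown because CREB is a described regulator of both families. The 250 bases before each RefSeq start were searched on both strands. The core TGACG of the cyclic AMP response element (CRE), which reads CGTCA on the other strand, was present in all 4 windows. The Egr4 window held 2 copies, and those of Nr4a1, Nr4a2 and Nr4a3 held 4 each. Of all 32851 promoter windows of this length, 17.8% held at least 1 core, 3.9% at least 2 and 0.137% at least 4. The 4 windows were rich in G and C (between 63.6% and 80%, against a median of 52.4% over all windows). Among the 9178 windows of at least 60% GC, 27.1% held a core and 0.37% held 4 or more. The Nr4a1 window lies inside the annotated span of the gene (101254269 to 101274795), before a RefSeq start within it. In the lines that follow, sequence runs 5′ to 3′ toward the RefSeq start. Capitals mark CRE cores on either strand and matches to the EGR site.
Egr4 (chr6:85513590-85513839, minus strand): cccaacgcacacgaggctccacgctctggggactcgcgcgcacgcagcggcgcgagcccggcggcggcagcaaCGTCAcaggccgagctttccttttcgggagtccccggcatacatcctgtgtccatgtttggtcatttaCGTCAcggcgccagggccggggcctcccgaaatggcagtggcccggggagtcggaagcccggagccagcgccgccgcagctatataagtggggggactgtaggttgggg
Nr4a1 (chr15:101266596-101266845, plus strand): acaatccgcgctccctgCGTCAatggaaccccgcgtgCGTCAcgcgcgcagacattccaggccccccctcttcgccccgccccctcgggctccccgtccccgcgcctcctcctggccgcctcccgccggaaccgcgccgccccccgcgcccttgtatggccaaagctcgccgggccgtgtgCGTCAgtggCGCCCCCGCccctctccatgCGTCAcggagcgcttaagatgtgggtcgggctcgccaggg
Nr4a2 (chr2:57124004-57124253, minus strand): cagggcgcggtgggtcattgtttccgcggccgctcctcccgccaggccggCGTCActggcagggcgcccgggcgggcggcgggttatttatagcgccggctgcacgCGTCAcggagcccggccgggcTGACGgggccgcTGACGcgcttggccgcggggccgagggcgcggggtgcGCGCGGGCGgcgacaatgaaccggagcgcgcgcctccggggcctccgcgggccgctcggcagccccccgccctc
Nr4a3 (chr4:48045055-48045152, plus strand): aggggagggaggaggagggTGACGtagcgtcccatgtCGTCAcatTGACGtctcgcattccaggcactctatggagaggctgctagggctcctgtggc

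The Nr4a3 line stops where an annotated exon of GENCODE M21 begins and so shows 3 of its 4 cores. The EGR site GCGNGGGCG occurred in the windows of Nr4a1 and Nr4a2, and in 4.7% of all windows. No window of these 4 genes held the full CRE TGACGTCA, the NR4A response element AAAGGTCA or an exact CArG box, the site of SRF. Those were present in 1.55%, 1.34% and 1.47% of all windows. The CArG box was searched only as CC, a fixed-length run of A and T alone, and GG. Near matches were not searched for, so SRF sites of looser form may be present. A match describes letters in this window and does not show binding.

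Per exonic base in the RNase R-treated RNA, Nr4a1 was the most abundant of the 6 and Nr4a2 and Nr4a3 the least. The part of the treatment in this order was not tested. RPKM, which are CPM divided by the exonic length in kilobases, were 16.6 ± 4.18 in 4-AP brain and 26.6 ± 8.13 in NC brain for Nr4a1 (SD, n = 3 each, here and for the other genes). Egr4 had 10.7 ± 0.24 RPKM in 4-AP brain and 20.5 ± 4.79 in NC brain. Egr1 had 8.31 ± 3.82 RPKM in 4-AP brain and 16.1 ± 6.48 in NC brain, and Egr3 had 8.01 ± 2.29 in 4-AP brain and 15.9 ± 4.66 in NC brain. Nr4a2 had 3.2 ± 1.14 RPKM in 4-AP brain and 3.33 ± 2.27 in NC brain, and Nr4a3 had 2.51 ± 1.0 in 4-AP brain and 4.28 ± 0.744 in NC brain. Nr4a1 exceeded Egr4 by more than either SD in 4-AP brain but not in NC brain. In both groups the means of Egr4, Egr1 and Egr3 lay within the larger SD of their neighbours in this order, as did those of Nr4a2 and Nr4a3, whereas the gap between the Egr genes and the lower pair exceeded 1 SD of either side. The remaining family member, Egr2, had 0 counts in all 6 libraries. So did Jund, Rims1 and Cdr1, which brain is known to express, so a count of 0 is not read here as absence of the RNA.

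The comparison of 4-AP with NC brain asked whether genes of these activity-driven families differ after induced seizures. Egr1, Egr3, Egr4, Nr4a1 and Nr4a3 had lower estimates in 4-AP brain, between 0.495 and 0.616 of the NC level, and Nr4a2 was at 0.949 of it. None of the 6, that is 0 in either direction, passed the test over all genes (edgeR's quasi-likelihood test, Benjamini-Hochberg adjusted p under 0.05). At that threshold 0.843% of the 11388 genes tested were called, 0.509% as lower and 0.334% as higher in 4-AP brain. With libraries scaled to total counts only, Egr1, Egr3, Egr4 and Nr4a1 passed as lower (4 of 6), but the calls over all genes were then 26 higher and 293 lower, against 38 higher and 58 lower in the analysis reported here. With no filter on low counts the same 4 genes passed (adjusted p between 0.00048 and 0.0185), and with a filter of CPM above 1 in 3 libraries Egr3 and Egr4 passed (adjusted p = 0.0369 and 0.0444). At an unadjusted p under 0.05, 5 of the 6 members were lower, against 7.57% of all genes. All 6 had a log2 fold change below 0, as did 51% of all genes, and 5 were at or below -0.5, as were 8.57% of all genes. DESeq2 called 1 member, Egr3 (adjusted p = 0.016), and gave no adjusted p for Egr4, Nr4a2 and Nr4a3. Limma-voom called 0. The median log2 fold change of the 6 was -0.87, beside -0.01 over all genes tested. In bulk RNA, fewer cells of a type and less RNA per cell cannot be told apart. The part of the RNase R treatment and of the library shares given above in these differences was not tested either.

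**Figure D1:**
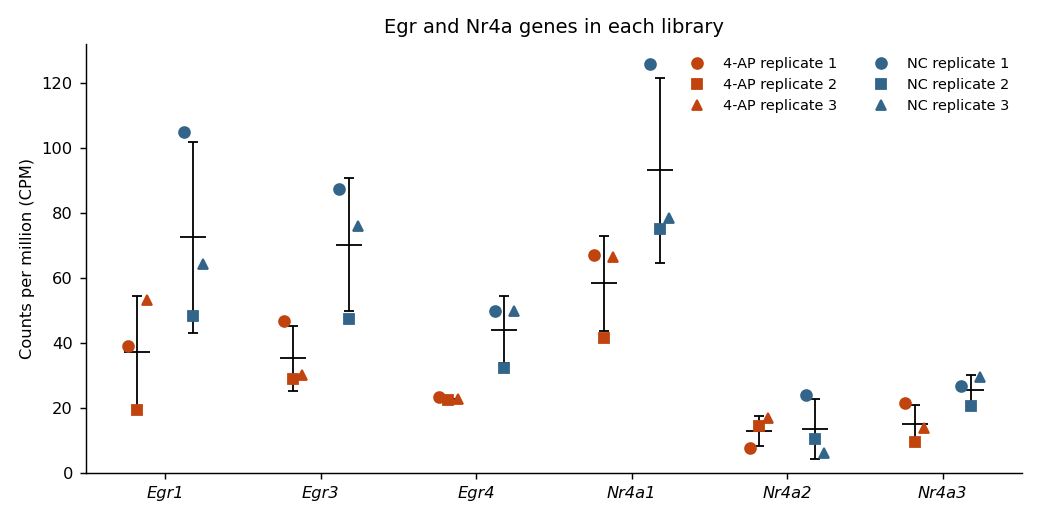
CPM of the 6 genes in each library, 4-AP in orange and NC in blue, with symbols for replicates and bars for mean ± SD (n = 3 each). In Egr3, Egr4 and Nr4a1 every 4-AP library lies below every NC library, and NC replicate 1 is the highest library in 4 of the 6 genes.

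Egr3 (mm10, chromosome 14, 70077203 to 70082614, plus strand) had 46.9, 28.9 and 30.0 CPM in 4-AP replicates 1 to 3, against 87.4, 47.5 and 75.9 CPM in NC replicates 1 to 3. The groups did not overlap, although 4-AP replicate 1 and NC replicate 2 were almost level. The log2 fold change was -1.0 (SE 0.24; adjusted p = 0.0548 by edgeR's test), the 111th smallest p of all genes tested. Egr4 (chromosome 6, 85511121 to 85513589, minus strand) had the smallest SD of the 6 in 4-AP brain, with 23.5, 22.5 and 22.7 CPM in the 4-AP libraries, against 50, 32.2 and 50 CPM in the NC libraries. Its groups did not overlap either, and its log2 fold change was -0.94 (SE 0.23; adjusted p = 0.0552 by edgeR's test). Groups that did not overlap with 4-AP lower were found in 3 of the 6 members and in 10.4% of all genes tested. With 4-AP higher they were found in 0 members and in 8.36% of all genes.

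Egr1, the family member most used as an activity reporter, had the most negative estimate of the 6, close to that of Egr3, and the largest SD in CPM in both groups. The gene lies on chromosome 18 (34859823 to 34864984, plus strand). It had 39.1, 19.3 and 53.4 CPM in the 4-AP libraries, against 105, 48.2 and 64.3 CPM in the NC libraries. 4-AP replicate 3 lay above NC replicate 2, so the groups overlapped. The log2 fold change was -1.01 (SE 0.42; adjusted p = 0.345 by edgeR's test). It was -0.62 without 4-AP replicate 2 and -0.64 without NC replicate 1.

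Nr4a1 (chromosome 15, 101254269 to 101274795, plus strand) had 67.1, 41.5 and 66.5 CPM in the 4-AP libraries, against 126, 75 and 78.5 CPM in the NC libraries. The groups did not overlap, but only NC replicate 1 stood well clear of the 4-AP libraries. The log2 fold change was -0.70 (SE 0.23; adjusted p = 0.147 by edgeR's test), and it was -0.41 without NC replicate 1 and -0.45 without 4-AP replicate 2. Nr4a3 (chromosome 4, 48045153 to 48086447, plus strand) had 21.5, 9.65 and 13.9 CPM in the 4-AP libraries, against 26.7, 20.7 and 29.5 CPM in the NC libraries, from counts between 19 and 85. Only 4-AP replicate 1 reached into the NC range. Its log2 fold change was -0.81 (SE 0.29; adjusted p = 0.185 by edgeR's test), and it was -0.48 without 4-AP replicate 2 and -0.76 without NC replicate 1.

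For Nr4a2 (chromosome 2, 57106830 to 57124003, minus strand) the direction depended on the library left out. It had 7.82, 14.3 and 16.8 CPM in the 4-AP libraries, against 23.9, 10.4 and 6.25 CPM in the NC libraries, from counts between 12 and 76. NC replicate 1 was the highest and NC replicate 3 the lowest of all 6 libraries, so the NC libraries enclosed all 3 4-AP libraries. The log2 fold change was -0.08 (SE 0.42; adjusted p = 0.966 by edgeR's test), so the difference was smaller than its error. It turned to 0.61 without NC replicate 1 and to 0.16 without 4-AP replicate 1. Values for regions where Nr4a2 is constitutive are given beside it. The 7 claustrum and layer 6b markers summed to between 59.9 and 84.7 CPM in 4-AP brain and between 71 and 84.5 CPM in NC brain. The 7 midbrain dopamine markers summed to between 40.4 and 103 CPM in 4-AP brain and between 36.8 and 44 CPM in NC brain, with the homeobox genes Pitx3 and En1 at 5 counts or fewer over each group. Their part in the Nr4a2 values was not tested.

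**Figure D2:**
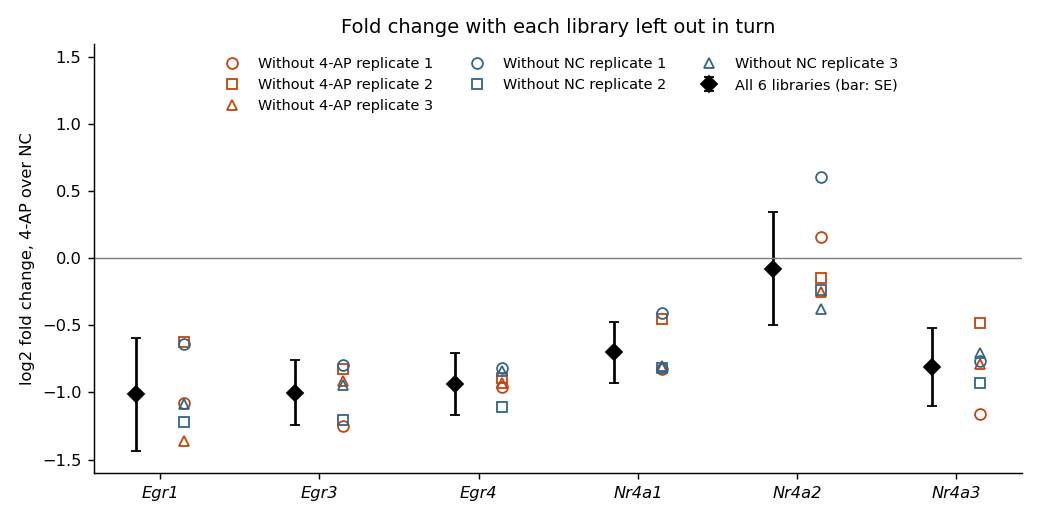
Log2 fold change of 4-AP over NC for the 6 genes from all libraries (black, bar for SE) and with each library left out in turn (open symbols). Egr1, Egr3, Egr4, Nr4a1 and Nr4a3 stay below 0 in all 6 such fits, and Nr4a2 lies on both sides of 0.

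With each library left out in turn, the 5 other genes stayed below 0 in all 6 fits. Egr3 ranged from -1.25 to -0.79 and passed the test in 2 of the 6 fits, without 4-AP replicate 1 (adjusted p = 0.0455) and without NC replicate 2 (adjusted p = 0.0278). Without NC replicate 1 its adjusted p was 0.145 and that of Egr4 was 0.131 (edgeR's test). Egr4 ranged from -1.11 to -0.82 and passed without NC replicate 2 (adjusted p = 0.0465 by edgeR's test). Egr1, Nr4a1 and Nr4a3 passed in 0 of the 6.

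The next question was whether the 6 genes vary together from library to library. Apart from Nr4a2 their correlations were all positive, and these include the difference between the groups. Pearson correlations of log2 CPM over the 6 libraries ran from 0.778 to 0.969 (median 0.82) in the 10 pairs without Nr4a2, and from -0.32 to 0.263 (median -0.05) in the 5 pairs with it. The median over all 15 pairs was 0.80, beside 0.00 over all 64837578 pairs of tested genes, and 7 of the 15 reached 0.8, as did 3.37% of all pairs. Without NC replicate 1 the median over the 15 pairs was 0.65, the lowest of the 6 values with 1 library left out. All genes share the same libraries and scaling factors, and genes are not independent replicates.

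Egr1 and Nr4a1 had the highest Pearson's r (r = 0.97, rho = 0.83; adjusted p = 0.0486 and 0.125 by two-sided exact permutation tests over 15 pairs; unadjusted p = 0.0167 and 0.0583). Both were highest in NC replicate 1 and lowest in 4-AP replicate 2. Egr3 and Egr4 were next by Pearson's r (r = 0.94, rho = 0.89; adjusted p = 0.0486 and 0.0833 by the same exact tests; unadjusted p = 0.0139 and 0.0333). Egr3 and Nr4a3 crossed the families (r = 0.92, rho = 0.94; adjusted p = 0.0417 and 0.0625 by the same exact tests; unadjusted p = 0.00833 and 0.0167). By Spearman's rho 4 pairs stood at 0.94, Egr3 and Egr4 each with Nr4a1 and with Nr4a3. Over all 15 pairs, 6 passed an adjusted p under 0.05 by Pearson's r and 0 by Spearman's rho, for which 6 pairs had an unadjusted p under 0.05 by the exact permutation test. Within its own family, Nr4a2 correlated with Nr4a1 at r = 0.26 and rho = -0.03 (adjusted p = 0.802 and 1 by the exact permutation tests; unadjusted p = 0.642 and 1) and with Nr4a3 at r = -0.32 and rho = -0.37 (adjusted p = 0.72 and 0.678; unadjusted p = 0.528 and 0.497, same exact tests).

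The 2 libraries farthest from the median of the first-named gene, usually 4-AP replicate 2 and NC replicate 1, were then left out. Without them, r in the 10 pairs ran from 0.274 to 0.993 with a median of 0.68, and 2 pairs, Egr1 with Egr3 (0.38) and Egr1 with Nr4a3 (0.27), were under 0.5 and rest on those libraries. For Egr1 and Nr4a1 r was then 0.64, for Egr3 and Egr4 it was 0.89 and for Egr3 and Nr4a3 0.99. The pairs with Nr4a2 lay between -0.958 and -0.101, over 4 libraries each.

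These correlations include the difference between the groups. With each group's mean removed, the 10 pairs without Nr4a2 still had r from 0.484 to 0.943 (median 0.64), given as a description. All 15 pairs had a median of 0.54 and a lowest r of -0.353. Over all pairs of tested genes the median was then 0.00. An r of 0.8 was reached by 3 of the 15 pairs and by 5.55% of all pairs. Within the 4-AP group, replicate 2 lay below the group mean in Egr1, Egr3, Egr4, Nr4a1 and Nr4a3, by 0.05 (Egr4) to 0.82 (Egr1) on the log2 scale. Within the NC group, replicate 2 lay below the mean in all 6 genes and replicate 1 above it in all 6, by 0.07 (Nr4a3) to 0.98 (Nr4a2).

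**Figure D3:**
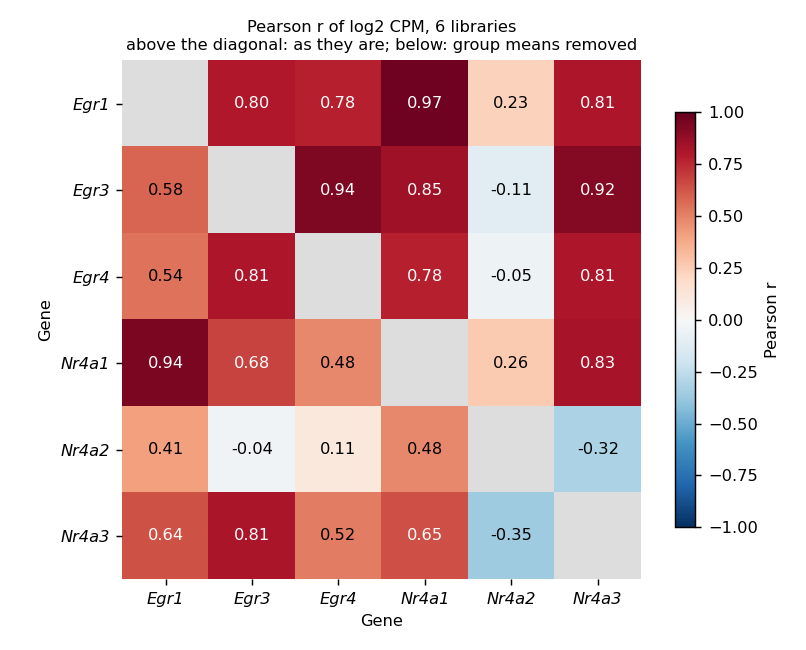
Pearson r between the 6 genes over 6 libraries, from log2 CPM as it is (above the diagonal) and with each group's mean removed (below it), on a colour scale from -1 to 1. Pairs with Nr4a2 lie between -0.353 and 0.477, and all other pairs are at 0.484 or above.

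The genes most like the members were named by 1 rule (highest Pearson r over 6 libraries among well-counted protein-coding genes). Among the genes closest to the mean pattern of the 6 were the perineuronal net link protein gene Hapln4 (r = 0.993), the zinc finger gene Hivep1 (0.988), the synaptic adaptor gene Srcin1 (0.988) and Nrsn1, a neuronal vesicle protein gene (0.987), out of 4672 candidates. The closest single genes were Sel1l3 for Egr1, Unc5a for Egr3, Hyou1 for Egr4, Nfix for Nr4a1, Mnat1 for Nr4a2 and Etl4 for Nr4a3, each at r between 0.987 and 0.996. Among the candidates, Nr4a1 was the 17th closest gene to Egr1 and Egr1 the 20th closest to Nr4a1. Egr3 was the 83rd closest to Egr4, Egr4 the 92nd closest to Egr3 and Egr3 the 95th closest to Nr4a3. All other such ranks in pairs without Nr4a2 lay between the 246th (Egr3 for Nr4a1) and the 541st (Egr1 for Egr4). With 6 libraries and this many candidates, such values are a description.

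Markers of cortical excitatory neurons, a main site of these genes in the forebrain, were at lower levels in 4-AP brain too. The 13 cortical excitatory markers summed to 2230, 1530 and 1650 CPM in the 4-AP libraries, against 2870, 2760 and 2870 CPM in the NC libraries, with no overlap. All 13 lay below 0 (median log2 fold change -0.79), as did 51% of all genes tested. Of the 13, 3 fell, against 0.509% of all genes: the vesicular glutamate transporter Slc17a7, the transcription factor Neurod2 and the postsynaptic protein gene Nrgn. Slc17a7 lost its call without 4-AP replicate 3, NC replicate 2 or NC replicate 3, Nrgn without these or 4-AP replicate 2, and Neurod2 without any library but 4-AP replicate 1. Among 9 astrocyte markers, Slc1a2 was also called lower (log2 fold change -0.63, SE 0.14; adjusted p = 0.0328 by edgeR's test). Of these 9, 6 lay above 0 (median 0.14). Hypothalamic markers ran the other way from the cortical ones, with 65.2, 51.5 and 84.8 CPM in the 4-AP libraries, against 19.2, 10.4 and 7.59 CPM in the NC libraries. Of their 4 tested members 3 rose, against 0.334% of all genes tested (Oxt, Avp and Trh, all 3 also called in each fit without 1 library). The part of these markers in the members' values was not tested.

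The summed level of the 6 genes was 206, 136 and 203 CPM in the 4-AP libraries, against 419, 234 and 304 CPM in the NC libraries, with no overlap. Set against the cortical markers, the sum overlapped between the groups. It came to 92.5, 89.2 and 123 CPM per 1000 CPM of cortical markers in the 4-AP libraries, against 146, 84.6 and 106 in the NC libraries. Each of the 6 overlapped between groups on this scale. Set against the 8 pan-neuronal markers, the sum came to 66.7, 48.5 and 74.8 per 1000 CPM in the 4-AP libraries, against 127, 65.9 and 96 in the NC libraries, where only NC replicate 2 reached into the 4-AP range. Per 1000 CPM of cortical markers, Egr3, for example, had 21.1, 19.0 and 18.1 in the 4-AP libraries, against 30.4, 17.2 and 26.4 in the NC libraries. Scaled to these markers, a setting added after the data were seen, the log2 fold changes were -0.33 for Egr1, -0.34 for Egr3, -0.25 for Egr4, -0.03 for Nr4a1, -0.16 for Nr4a3 and 0.65 for Nr4a2. That scaling also moved the median of all genes to 0.68, so it describes the members relative to the cortical markers and not to all genes.

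**Figure D4:**
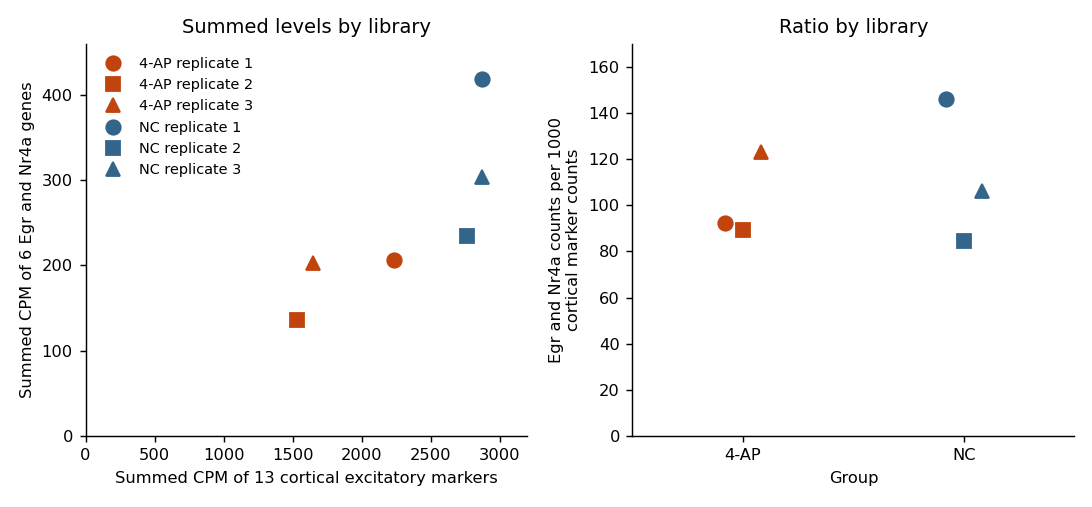
Left, summed CPM of the 6 genes against summed CPM of 13 cortical excitatory markers in each library. Right, the ratio of the sums (per 1000) by group, 4-AP at the left: the 4-AP libraries, between 89.2 and 123, lie inside the NC range of 84.6 to 146.

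The wider immediate early programme was read from a list of 25 other genes, of which 20 were tested. Their median log2 fold change was -0.52, 16 of the 20 lay below 0, and 2 fell: Ier5, a stress and growth response gene (log2 fold change -1.13, SE 0.18; adjusted p = 0.00309 by edgeR's test), and Fosl2, which encodes a subunit of AP-1 (-1.12, SE 0.22; adjusted p = 0.0146 by edgeR's test). None was called higher. Over all genes tested, 51% lay below 0, 0.509% were called lower and 0.334% higher. Fosl2 lost its call without 4-AP replicate 1 or 4-AP replicate 3 (range of the log2 fold change over the 6 fits -1.26 to -0.81), and Ier5 passed in all 6 fits. Dusp1, a MAP kinase phosphatase gene, was the positive member with the lowest p (0.37, SE 0.26; adjusted p = 0.592 by edgeR's test). Named outside the rule because they are standard markers of seizure activity, Fos was at -0.95 (adjusted p = 0.0937) and Arc, a synaptic regulator and EGR target, at -1.33 (adjusted p = 0.0777, same edgeR test).

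Of 19 genes that regulate or partner the 2 families, 17 were tested, with a median log2 fold change of -0.18. Among these 1 fell, as did 0.509% of all genes tested. The called gene was Mef2c, a calcium-responsive activator of Nr4a1 and a gene of cortical excitatory neurons. It had 175, 134 and 127 CPM in the 4-AP libraries, against 217, 272 and 230 CPM in the NC libraries (log2 fold change -0.72, SE 0.16; adjusted p = 0.0327 by edgeR's test). Leaving out replicate 2 or replicate 3 of either group ended the call (range -0.88 to -0.60). Creb1, which encodes the factor of the CRE, was at 0.29 (SE 0.18) and Srf, named outside the rule, at -0.09 (SE 0.20). Nab2, a corepressor of EGR proteins that EGR proteins themselves induce, had 24.1, 23.9 and 6.58 CPM in the 4-AP libraries, against 31.1, 37.6 and 42.8 CPM in the NC libraries. The groups did not overlap, and it did not pass (log2 fold change -0.96, SE 0.31; adjusted p = 0.147 by edgeR's test). Its relative Nab1 was level (0.00, SE 0.16). Both were named outside the rule.

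Medians of described targets of the 2 families had opposite signs, a difference that was not tested. The NR4A median rests on 4 genes of mixed sign, so its own sign carries little. Of 6 EGR targets, 5 were tested and 0 passed, with 4 at an unadjusted p under 0.05 and all 4 of them negative (median -0.65). At that unadjusted p of edgeR's test stood 13.9% of all genes tested in either direction, and 7.57% as lower. Syn1, a synaptic vesicle phosphoprotein gene, had the smallest p (-0.65, SE 0.17; adjusted p = 0.0707 by edgeR's test), and the GABA-A receptor subunit gene Gabra4 was at 0.05 (SE 0.17). The remaining target, the neurotrophin receptor gene Ngfr, was too sparse to test and is named outside the rule. It had 3.91, 5.72 and 5.85 CPM in the 4-AP libraries, against 0.314, 0.519 and 0 CPM in the NC libraries (30 counts in all in 4-AP brain and 3 in NC brain), with no overlap. Of 6 NR4A targets, 4 were tested and 0 passed, with 2 at an unadjusted p under 0.05, both positive (median 0.56). The 4 were split, with 2 above 0 and 2 below. Of the latter, Bdnf, named outside the rule, was level (-0.002, SE 0.39). Th, the rate-limiting enzyme of dopamine synthesis, had 9.78, 5.36 and 6.58 CPM in the 4-AP libraries, against 1.89, 3.37 and 3.57 CPM in the NC libraries (log2 fold change 1.26, SE 0.51; adjusted p = 0.246 by edgeR's test). Pomc, a pituitary and hypothalamic hormone precursor, was at -0.60 (SE 1.14). The dopamine transporter gene Slc6a3, too sparse to test, had 0, 16.8 and 4.39 CPM in the 4-AP libraries, against 0, 0.519 and 0 CPM in the NC libraries. Th, Slc6a3 and Slc18a2 are in the midbrain dopamine list and Pomc is in the hypothalamic list, whose summed levels are given above. Arc and Nab2 stand in 2 lists each.

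**Figure D5:**
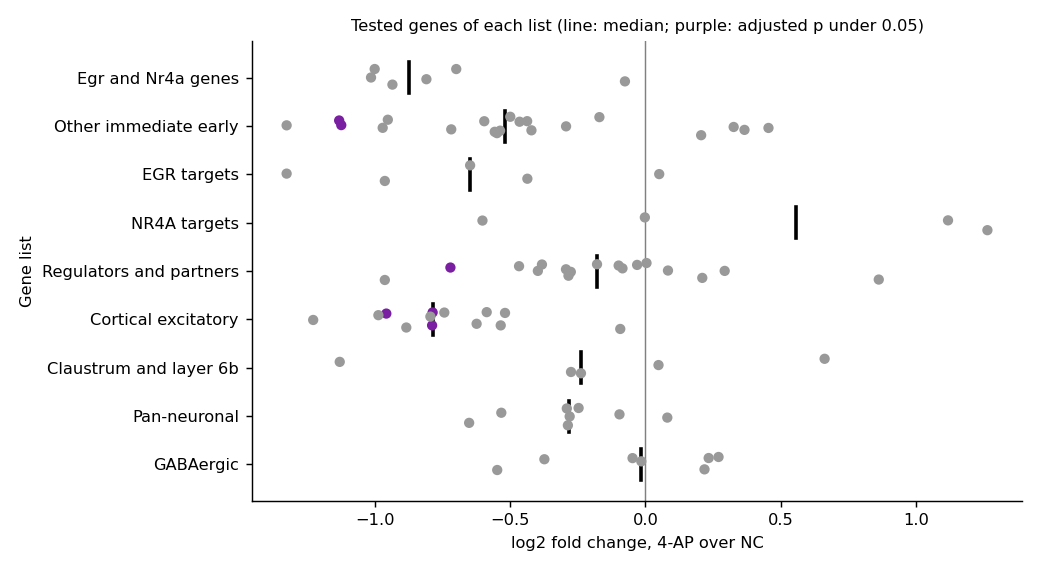
Log2 fold change of 4-AP over NC for each tested gene of 9 lists, with black lines at the medians and purple points for genes at an adjusted p under 0.05. The Egr and Nr4a genes have a median of -0.87 and the cortical excitatory markers one of -0.79, and the GABAergic markers are centred near 0 (median -0.02).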

How the data were processed

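The authors deposited whole-number read counts per gene, 1 table per library. The submitters' processing notes list STAR 2.5.3a, featureCounts and the build mm10. Which annotation and strand setting were used, and how reads with several matches were treated, is not given in the sources used here. Therefore overlapping genes on either strand cannot be separated. No exonic base of the 6 members is shared with another annotated gene. Of 55604 identifiers, 54723 were found in GENCODE M21 (also mm10). The closest pair of libraries, 4-AP replicate 2 and NC replicate 3, had a chi-square of 7.79 per degree of freedom over genes, so no library repeated another within sampling noise.

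The low-count filter was filterByExpr, with a minimum count of 10 and a minimum total of 15. Libraries were scaled by TMM. The main test was that of edgeR 4.0.16 under R 4.3.3 (quasi-likelihood test, robust fit, group as the only term), with Benjamini-Hochberg adjustment over 11388 genes. CPM were computed from the deposited counts and the scaled library sizes. A count of 3 equalled between 0.778 and 2.19 CPM. RPKM divide by the exonic bases of GENCODE M21. Correlations used log2 CPM with a prior count of 2. Their p-values enumerate all 720 orders of the libraries. The procedure was tested on simulated data. Alternatives were DESeq2 1.42.0, limma-voom (limma 3.58.1), other scalings and filters, a replicate block and each library left out.

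The members, lists and tests were chosen with earlier results of these data known. Genes named are the members, Egr2, list genes past the threshold or otherwise those with the smallest p in each direction, and the most correlated genes. Others are marked. A gene that the rule on correlated genes names is not reported here.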

Additional observations from a re-analysis of the deposited data

How the results depend on the processing

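The count of called members, 0 in the analysis as reported, was 4 with total counts only, with no filter and with the replicate block (Egr1, Egr3, Egr4 and Nr4a1 each time), 2 with a CPM above 1 in 3 libraries and at an adjusted p under 0.1 (Egr3 and Egr4), and 1 with DESeq2 (Egr3). It ranged from 0 to 2 when each library was left out. The count of called genes, 96 as reported, was 319 with total counts only (26 higher and 293 lower), 193 with DESeq2, 328 with no filter, 265 with the replicate block, 290 at an adjusted p under 0.1 and 5026 when scaled to cortical excitatory markers, and ranged from 26 to 159 when each library was left out (52, 127 and 26 without 4-AP replicates 1, 2 and 3, and 159, 41 and 37 without NC replicates 1, 2 and 3). The balance of 38 higher and 58 lower turned in 4 of these 6 fits, to 91 higher against 36 lower when 4-AP replicate 2 was left out, 16 higher against 10 lower for 4-AP replicate 3, 105 higher against 54 lower for NC replicate 1, and 27 higher against 10 lower for NC replicate 3. Of the calls 39.6% were higher as reported, 8.15% with total counts only, where the median of all genes was -0.22, and 99.8% with the cortical scaling, where it was 0.68. The cause of these differences was not tested. The 0.1 threshold and the cortical scaling, were chosen after seeing the data. Nr4a2 changed sign with limma-voom (0.0596), with the replicate block (0.0582), without 4-AP replicate 1 (0.16), without NC replicate 1 (0.61) and with the cortical scaling (0.65), and ranged from -0.38 to 0.61 when each library was left out. The other 5 members were below 0 in all 17 alternatives tried for them. The 0.1 threshold is 1 of these and by design leaves every log2 fold change as it was. The median pairwise correlation, 0.80 as reported, was 0.54 with group means removed and ranged from 0.648 (without NC replicate 1) to 0.844 when each library was left out. The series' text speaks of paired tissue, but libraries with the same number deviated together only weakly (r over genes of -0.001, 0.114 and 0.029), and 1 of the 3 pairs was the best match of its 4-AP library, so the numbers were not taken as pairs. Depth limits the sparse members: the 6 genes had between 12 and 401 counts per library.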
